A study of Mus musculus with 12 samples.

Results

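The glycolysis and hypoxia-response genes described here are a list of 35 named genes: 20 genes of glucose uptake, glycolysis and lactate export, 3 regulators of these steps, and 12 genes of the HIF system and the wider hypoxia response. All 35 were found among the 31054 gene identifiers of the tables, and all 35 passed the filter on low counts that left 13141 genes. Messenger RNA was sequenced from dendritic cells cultured out of C57BL6 wild-type mouse bone marrow, with live cells enriched for CD11c on day 7. TolDC were tolerogenic cells made with vitamin D3 and IL-10, BMDC were the cells grown without them, and each kind was left alone or stimulated with lipopolysaccharide (LPS), a bacterial cell wall component that activates Toll-like receptor 4. That gave the groups TolDC+LPS, TolDC, BMDC+LPS and BMDC, with 3 libraries each. Doses and the length of stimulation are not stated in the labels, and nothing in the labels ties the 3 libraries of a group to separate mice, so p-values measure the spread between these libraries, which may be technical.

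Glycolysis splits glucose into pyruvate in the cytosol, and lactate dehydrogenase then turns pyruvate into lactate, which frees the cofactor that keeps the pathway running. HIF-1 is a transcription factor whose alpha chain is made all the time and destroyed when prolyl hydroxylases mark it in the presence of oxygen. When oxygen falls it raises the genes of glucose uptake, glycolysis and lactate export together with several of its own inhibitors. LPS can also stabilise HIF-1 at normal oxygen in macrophages and dendritic cells, in which it is known for a switch towards glycolysis.

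Each library held 21844405 to 41764975 reads assigned to genes. Levels below are TMM-normalised CPM (counts scaled to the same library total), and 3 reads corresponded to 0.0718 to 0.137 CPM. Tests are edgeR quasi-likelihood tests on the counts with Benjamini-Hochberg adjustment over all 13141 genes. A gene was called when its adjusted p was below 0.05. The 9 dendritic cell markers summed to 8802 to 10531 CPM in TolDC+LPS, 7081 to 7456 in TolDC, 9647 to 11154 in BMDC+LPS and 6639 to 6991 in BMDC, so that the sum was higher with LPS, and its part in the LPS responses was not tested. Markers whose levels are not given here make up most of the sum. Of the 8 markers tested, 2 were called higher and 4 lower in TolDC than in BMDC without LPS, beside 32% and 30.4% of all genes. With LPS, 1 was called higher and 6 lower in TolDC, beside 34.3% and 33.7%. Among the 9 markers Itgax, which encodes CD11c, fell with LPS where the sum rose, and averaged 1378 CPM in TolDC+LPS, 2091 in TolDC, 1357 in BMDC+LPS and 2077 in BMDC. H2-Ab1, an MHC class II chain, averaged 1279.7 CPM in TolDC+LPS, 814 in TolDC, 496 in BMDC+LPS and 331 in BMDC, and Zbtb46, a transcription factor of conventional dendritic cells, 16.4, 16.8, 64.1 and 31.9 CPM in that order. Flt3, a receptor that defines conventional dendritic cells, stayed near 0 at 0.0495 to 1.75 CPM in all libraries, and Cd209a had no read in any of the 6 TolDC libraries. Summed markers of T cells, B cells and erythroid cells reached at most 6.89, 4.10 and 6.07 CPM. Neutrophil markers summed to 740 to 1078 CPM in TolDC+LPS, 773 to 1286 in TolDC, 374 to 1662 in BMDC+LPS and 793 to 2725 in BMDC, with the lowest sum in replicate 1 of every group. The 8 mast cell and basophil markers summed to 201 to 419.6 CPM in TolDC+LPS, 76.8 to 274 in TolDC, 222 to 346 in BMDC+LPS and 31.7 to 116 in BMDC, again lowest in replicate 1, and their part in the LPS responses below was not tested. The 4 NK cell markers reached at most 32.7 CPM. In these bulk libraries, fewer cells of a type and less RNA per cell cannot be told apart.

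LPS raised most of the list in both kinds of cell. In TolDC, 24 of the 35 members rose with LPS and 8 fell, against 35.4% of all genes called higher and 35.9% called lower, or 71.3% called in all. In BMDC, 26 members rose and 6 fell, against 36.7% and 36.4% of all genes and 73.2% in all. Changes of at least 2-fold were seen in TolDC for 7 members upwards and 1 downwards, where 9.64% and 10.6% of all genes changed as much, 20.3% together. In BMDC 13 members rose and 1 fell by at least 2-fold, where 11.2% and 11% of all genes did, 22.2% together. The median log2 change of the members was 0.34 in TolDC and 0.43 in BMDC, with a median near 0 for all genes in each (−0.0017 and −0.00029). Rises in both kinds of cell were called for 22 members, and falls in both for 5, where 26.9% and 26.6% of all genes were called so.

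Without LPS, TolDC already carried more of most of these transcripts than BMDC. Of the 35 members, 26 were higher and 6 lower in TolDC, against 32% and 30.4% of all genes and 62.4% called in all. With 2-fold as the minimum, 5 members were higher and 4 lower, against 6.49% and 8.03% of all genes and 14.5% together. Under LPS the list split more evenly, with 16 members higher in TolDC+LPS than in BMDC+LPS and 12 lower, against 34.3% and 33.7% of all genes and 67.9% in all. There, 3 members were higher and 3 lower by at least 2-fold, against 6.85% and 9.5% of all genes and 16.3% together. The median difference of the members was 0.36 on the log2 scale without LPS and 0.033 with it, beside 0.0091 and 0.024 for all genes.

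The difference between the LPS responses, TolDC minus BMDC, was tested for each gene as an interaction. A lower value means a smaller rise or a larger fall in TolDC. It was called lower in TolDC for 16 members and higher for 5, against 24% and 20.4% of all genes and 44.4% in all. A difference of at least 2-fold was called for 2 members, both lower, against 4.62% of all genes lower, 3.67% higher and 8.29% together. The 12 HIF and hypoxia genes had a median difference of −0.57, with 8 called lower and 1 higher. The 20 pathway genes had a median difference of −0.12, with 7 called lower and 2 higher, and among the 3 regulators 2 were called higher and 1 lower. Interaction, LPS and TolDC contrasts draw on the same libraries, so their values are set side by side below and are not independent of each other.

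Promoters were read for the members whose LPS response was most reduced in TolDC, since their start sites can be searched for the core letters of the HIF response element. RefSeq promoters (GRCm38.p6) matched 32 of the 35 members, all but Slc2a3, Bnip3l and Ndrg1, with Ero1l found under its symbol Ero1a. ACGTG was searched on both strands, which finds its reverse complement CACGT too. In CACGTG the strands overlap and give a match each, and that word is also the E-box bound by other factors. In the 250 bases before the start, 20 of the 32 members (62.5%) held at least 1 match in at least 1 listed promoter, and 4998 of 27025 genes (18.49%) did. By window, 23 of 45 (51.11%) of the members' promoters and 16.57% of all 32851 held one. The 27025 genes are all those with a RefSeq promoter, and not only the 13141 that passed the filter on low counts. Promoters of like base content were not compared. No match was found for Hk1, Gpi1, Pfkl, Pfkp, Aldoc, Tpi1, Gapdh, Eno1, Eno2, Pfkfb4, Pdk1 or Adm, which says only that these letters are not in this window. Of the 6 members with at least 5 CPM and the lowest interaction, all but Tpi1 held a match. The stretches around it are printed 5′ to 3′ on the strand of the gene, with the match in capitals. They lie at chr8:45999851-45999970 (minus strand) for Ankrd37, chr7:138909507-138909626 (minus) for Bnip3, chr8:124949295-124949414 (minus) for Egln1, chr4:119108621-119108740 (plus) for Slc2a1 and chr10:59323176-59323295 (plus) for P4ha1.
Ankrd37: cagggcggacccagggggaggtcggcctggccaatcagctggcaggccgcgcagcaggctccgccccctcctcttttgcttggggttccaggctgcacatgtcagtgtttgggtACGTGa
Bnip3: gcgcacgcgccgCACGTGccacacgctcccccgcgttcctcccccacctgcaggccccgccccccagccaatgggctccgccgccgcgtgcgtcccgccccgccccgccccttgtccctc
Egln1: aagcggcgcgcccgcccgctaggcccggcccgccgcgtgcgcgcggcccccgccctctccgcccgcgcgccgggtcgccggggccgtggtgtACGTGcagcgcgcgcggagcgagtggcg
Slc2a1: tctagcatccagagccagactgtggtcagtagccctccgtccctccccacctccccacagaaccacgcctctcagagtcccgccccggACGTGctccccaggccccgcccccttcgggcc
P4ha1: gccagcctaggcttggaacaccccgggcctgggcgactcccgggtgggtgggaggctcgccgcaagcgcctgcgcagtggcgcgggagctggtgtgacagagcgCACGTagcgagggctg
Of these, the match nearest to the RefSeq start is one of Ankrd37, whose first base lies 6 bases before it, followed by P4ha1 at 16, Slc2a1 at 36 and Egln1 at 68. Ankrd37 holds another match 241 bases before the start, outside the printed stretch. The RefSeq start of Ankrd37 lies 5857 bases inside the gene as GENCODE M21 draws it, and 17 of the printed bases fall in an exon of that annotation. So do 30 of the printed bases of Egln1, 30 of Slc2a1 and 13 of Bnip3, and 0 of P4ha1. The RefSeq start lies 70 bases inside the GENCODE gene for Egln1 and 34 for Slc2a1. By that annotation the Egln1 match lies within an exon, and the Slc2a1 match spans the start of the gene. Bnip3 alone of the 5 holds CACGTG. A match is a description of the letters and not a measured binding site.

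**Figure D1:**
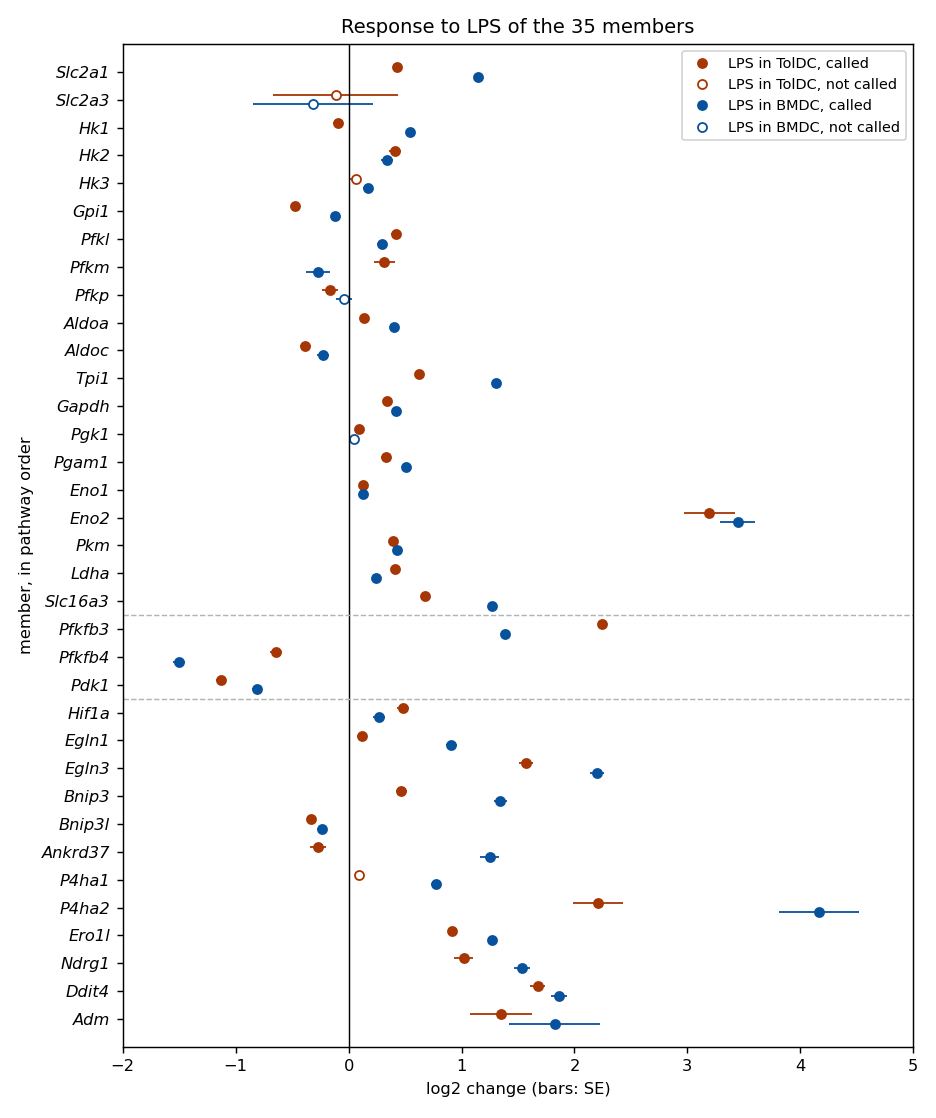
Log2 change with LPS for the 35 members in pathway order, in TolDC (orange) and BMDC (blue), with bars for the SE. Filled points passed an adjusted p of 0.05. The largest rises are those of Eno2 (3.20), Pfkfb3 (2.24) and P4ha2 (2.21) in TolDC and of P4ha2 (4.17) and Eno2 (3.45) in BMDC, and the dashed lines separate the 20 pathway genes, the 3 regulators and the 12 HIF and hypoxia genes.

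Of the 2 glucose transporters of the list, Slc2a1 was the abundant one. It encodes GLUT1, the basal transporter of most cells, and lies at chr4:119108711-119137983 in GRCm38. Slc2a1 had 301, 279 and 293 CPM in TolDC+LPS, 219, 211 and 218 in TolDC, 351, 329 and 338 in BMDC+LPS, and 152, 151 and 156 in BMDC. The 4 groups did not overlap, with BMDC+LPS highest and BMDC lowest. LPS changed Slc2a1 by 0.43 (SE 0.039, adjusted p = 1e-08) on the log2 scale in TolDC and by 1.15 (SE 0.040, adjusted p = 5.44e-15) in BMDC, and the responses differed by −0.72 (SE 0.055, adjusted p = 7.43e-09). Without LPS the gene was higher in TolDC than in BMDC by 0.50, and with LPS it was lower, at −0.22. Per kilobase of exon, Slc2a1 made up 97.5% to 99.2% of the sum of Slc2a1 and Slc2a3 on average in each group.

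Slc2a3, which encodes the high-affinity transporter GLUT3, was scarce and uneven. Slc2a3 had 2.22, 6.66 and 5.38 CPM in TolDC+LPS, 2.38, 6.69 and 6.38 in TolDC, 3.80, 8.71 and 7.19 in BMDC+LPS, and 4.55, 10.5 and 9.04 in BMDC. Replicate 1 was the lowest library in every group, at 0.364 to 0.478 of the mean of the other 2, whereas the other members with at least 5 CPM in a group ran between 0.785 and 1.17. None of its 5 tests passed, with adjusted p between 0.338 and 0.867. With the replicate number as a block in the fit, Slc2a3 was called lower in TolDC, at −0.64 without LPS (adjusted p = 5.98e-06) and −0.49 with LPS (adjusted p = 0.000271), and lower with LPS in BMDC, at −0.28 (adjusted p = 0.0144). With the 4 libraries numbered 1 left out, Slc2a3 was lower in TolDC than in BMDC, with a log2 difference of −0.59 without LPS (adjusted p = 8e-06) and −0.42 with LPS (adjusted p = 0.00179), and lower with LPS in BMDC, with a log2 change of −0.31 (adjusted p = 0.0131). The neutrophil marker sum was also lowest in each of these 4 libraries, for example 793 CPM in BMDC replicate 1 beside 2725 and 2655 in the other BMDC libraries. So were the sums for mast cells and basophils (31.7 CPM there beside 115 and 116), T cells, B cells and NK cells (3.78 beside 15.5 and 16.4). The dendritic cell sum was instead highest in each of them. The part of any of these in the Slc2a3 values was not tested.

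Hexokinases trap glucose in the cell as glucose-6-phosphate. Hk3 was the most abundant of the 3 per kilobase of exon in every group, with 76.1% of the family level in TolDC+LPS, 77.8% in TolDC, 67.7% in BMDC+LPS and 71.3% in BMDC. Hk3 averaged 756 ± 40.98 CPM in TolDC+LPS, 724 ± 18.7 in TolDC, 639.8 ± 24.7 in BMDC+LPS and 568 ± 31.6 in BMDC (SD, n = 3). It was higher in TolDC without LPS by 0.35 and with LPS by 0.24, changed with LPS by 0.062 (SE 0.047, adjusted p = 0.247) in TolDC, which did not pass, and rose by 0.17 in BMDC. Hk2, the inducible form that binds mitochondria, ran the other way between cell types. Hk2 had 245, 227 and 236 CPM in TolDC+LPS, 185, 175 and 172 in TolDC, 307, 290.4 and 282 in BMDC+LPS, and 252, 220.1 and 223 in BMDC. It was lower in TolDC, with a log2 difference of −0.38 without LPS and −0.31 with LPS, and rose with LPS by 0.41 in TolDC and 0.34 in BMDC.

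Hk1, the broadly expressed hexokinase, responded to LPS in BMDC. Hk1 had 219, 205 and 208 CPM in TolDC+LPS, 231, 221 and 223 in TolDC, 298, 281 and 288 in BMDC+LPS, and 206, 194 and 194 in BMDC. All 3 BMDC+LPS libraries lay above the other 9, and those of TolDC+LPS lay below those of TolDC. The log2 change with LPS in TolDC was −0.094 (SE 0.040, adjusted p = 0.044), a small fall close to the threshold. In BMDC it was 0.55 (SE 0.041, adjusted p = 4.87e-10). The interaction of −0.64 (SE 0.057, adjusted p = 4.87e-08) passed. The fall in TolDC lost its call in 13 of 20 alternatives, with adjusted p over all of them between 0.00134 and 0.168. Among these it was −0.095 (adjusted p = 0.0501) without BMDC replicate 2, −0.083 (adjusted p = 0.0728) without BMDC replicate 3, −0.093 (adjusted p = 0.0501) without BMDC+LPS replicate 2, −0.093 (adjusted p = 0.06) without BMDC+LPS replicate 3, −0.075 (adjusted p = 0.151) without TolDC replicate 1, −0.11 (adjusted p = 0.0538) without TolDC replicate 2, −0.10 (adjusted p = 0.0713) without TolDC replicate 3, −0.073 (adjusted p = 0.168) without TolDC+LPS replicate 2 and −0.084 (adjusted p = 0.133) without TolDC+LPS replicate 3. Whether Hk1 or Hk2 was higher per kilobase of exon in TolDC+LPS turned on the length used, at 9.17% against 14.7% of the family by all exons and 15.1% against 13.1% by the longest transcript.

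Phosphofructokinase, the committing step of glycolysis, changed its paralog make-up between the kinds of cell. Pfkp, the platelet-type enzyme at chr13:6579768-6648777, held 35.6% of the family level per kilobase in TolDC+LPS, 45.0% in TolDC, 59.8% in BMDC+LPS and 64.6% in BMDC, where it was the most abundant paralog with and without LPS. Pfkp had 288, 269 and 275 CPM in TolDC+LPS, 328, 309 and 296 in TolDC, 740.3, 630.3 and 654 in BMDC+LPS, and 769.8, 667 and 646 in BMDC. Every TolDC library was below every BMDC library, with a log2 difference of −1.16 (SE 0.071, adjusted p = 4.67e-09) without LPS and −1.28 (SE 0.071, adjusted p = 1.2e-09) with LPS. The log2 change of Pfkp with LPS was −0.17 (SE 0.071, adjusted p = 0.0497) in TolDC, and −0.041 (SE 0.070, adjusted p = 0.61) in BMDC, which did not pass. The fall in TolDC lost its call in 10 of 20 alternatives, with adjusted p from 4.47e-06 to 0.172. Left-out libraries gave −0.17 (adjusted p = 0.0558) without BMDC replicate 2, −0.16 (adjusted p = 0.0588) without BMDC+LPS replicate 3, −0.12 (adjusted p = 0.172) without TolDC replicate 1, −0.17 (adjusted p = 0.085) without TolDC replicate 2, −0.18 (adjusted p = 0.0738) without TolDC+LPS replicate 1, −0.14 (adjusted p = 0.148) without TolDC+LPS replicate 2 and −0.16 (adjusted p = 0.11) without TolDC+LPS replicate 3.

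Pfkm, the muscle-type enzyme at chr15:98092589-98132451, showed the opposite pattern at a lower level. Pfkm had 20.1, 19.7 and 18.5 CPM in TolDC+LPS, 16.5, 16.98 and 13.4 in TolDC, 6.05, 6.73 and 8.001 in BMDC+LPS, and 8.08, 8.46 and 8.44 in BMDC. All 6 TolDC libraries were above all 6 BMDC libraries, by 0.90 (SE 0.098, adjusted p = 2.14e-07) without LPS and 1.49 (SE 0.0996, adjusted p = 1.76e-10) with LPS. LPS raised Pfkm in TolDC by 0.32 (SE 0.090, adjusted p = 0.00419), while in BMDC it fell by 0.27 on the log2 scale (SE 0.11, adjusted p = 0.0298). The fall in BMDC lost its call in 5 of 20 alternatives, with adjusted p from 0.00519 to 0.173, among them −0.26 (adjusted p = 0.0711) without BMDC replicate 2, −0.26 (adjusted p = 0.0706) without BMDC replicate 3, −0.18 (adjusted p = 0.173) without BMDC+LPS replicate 1 and −0.26 (adjusted p = 0.0727) without BMDC+LPS replicate 2. Pfkl, the liver-type enzyme, averaged 211 ± 6.26 CPM in TolDC+LPS, 158 ± 2.86 in TolDC, 211 ± 5.75 in BMDC+LPS and 172 ± 3.42 in BMDC (SD, n = 3) and rose with LPS by 0.42 in TolDC and 0.29 in BMDC. Its share of the family per kilobase was 54.4% in TolDC+LPS, 45.9% in TolDC, 37.7% in BMDC+LPS and 32.3% in BMDC, and Pfkm held 10.02%, 9.05%, 2.48% and 3.12% in the same order. Pfkp overlaps Pitrm1 and Pfkm overlaps Senp1 on the opposite strand, and the counts used here came from the strand of the gene.

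**Figure D2:**
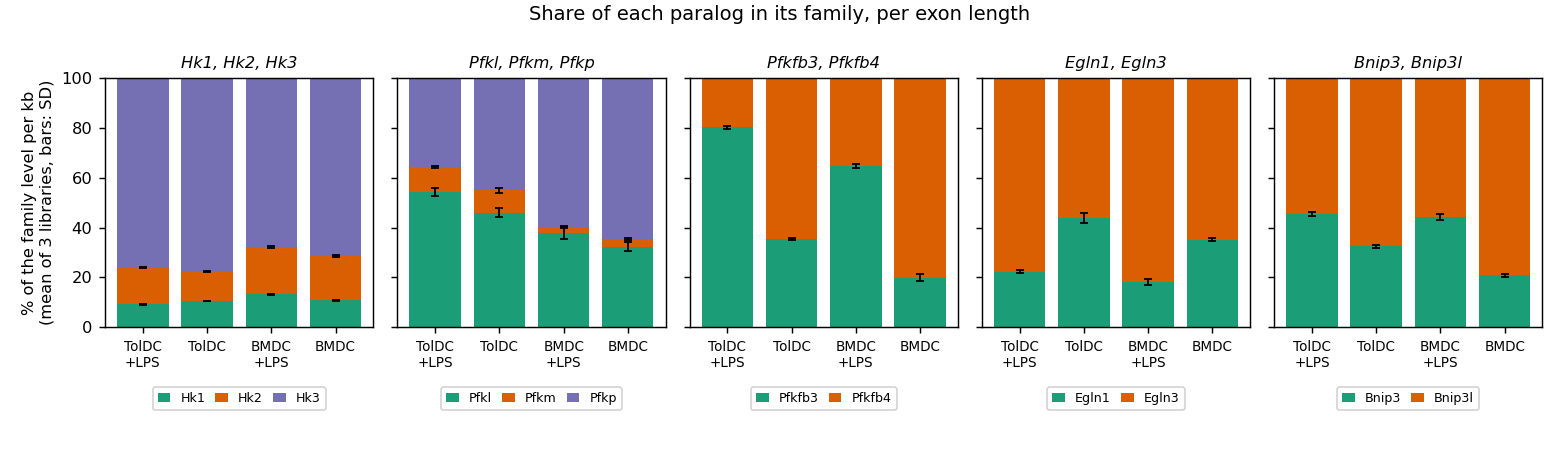
Share of each paralog in the summed level of its family, as normalised CPM per kilobase of exon, in TolDC+LPS, TolDC, BMDC+LPS and BMDC (stacked bars, mean of 3 libraries; error bars, SD). Pfkp held 35.6% of the phosphofructokinases in TolDC+LPS and 64.6% in BMDC, and Pfkfb3 held 80.3% of its pair in TolDC+LPS and 19.9% in BMDC.

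The steps from glucose-6-phosphate to triose phosphates moved unevenly. Gpi1, the isomerase that makes fructose-6-phosphate, fell with LPS, with a log2 change of −0.48 (SE 0.034, adjusted p = 3.76e-10) in TolDC and −0.12 (SE 0.034, adjusted p = 0.0035) in BMDC, and averaged 724 ± 13.5 CPM in TolDC+LPS, 1008 ± 16.5 in TolDC, 728 ± 3.85 in BMDC+LPS and 793 ± 18.8 in BMDC (SD, n = 3). Its highest levels were in TolDC, which exceeded BMDC by 0.35. Aldoa, the main aldolase, was the member with the highest level per kilobase in every group. It averaged 1820.0 ± 28.9 CPM in TolDC+LPS, 1654 ± 44.9 in TolDC, 1993 ± 18.1 in BMDC+LPS and 1508 ± 38.2 in BMDC (SD, n = 3), and rose with LPS by 0.14 in TolDC and 0.40 in BMDC. Aldoc, the aldolase best known from brain, made up 1.89% to 3.07% of the family level per kilobase and fell with LPS by 0.38 in TolDC and 0.23 in BMDC on the log2 scale.

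Tpi1, which interconverts the triose phosphates so that both can enter the later steps of glycolysis, had the largest rise with LPS of the core enzymes after Eno2. The gene lies at chr6:124810586-124814296. Tpi1 had 620.4, 614 and 621 CPM in TolDC+LPS, 404, 403 and 399 in TolDC, 604, 571 and 588 in BMDC+LPS, and 235, 239.7 and 242 in BMDC. Each group stood clear of the others, except that TolDC+LPS and BMDC+LPS lay close, with TolDC+LPS above BMDC+LPS in every library. The rise with LPS was 0.62 (SE 0.034, adjusted p = 6.98e-12) in TolDC and 1.30 (SE 0.035, adjusted p = 1.57e-16) in BMDC, and the responses differed by −0.68 (SE 0.049, adjusted p = 3.35e-09). TolDC exceeded BMDC by 0.75 (SE 0.035, adjusted p = 1.04e-12) without LPS, and the difference with LPS, 0.073 (SE 0.034, adjusted p = 0.0671), did not pass. It passed with the replicate block, at 0.073 (adjusted p = 0.0259), and without BMDC+LPS replicate 1, at 0.095 (adjusted p = 0.0274), and ranged in adjusted p from 0.00167 to 0.234 over 20 alternatives. By level per kilobase of exon, Tpi1 had rank 5 of the 35 members in TolDC+LPS and in BMDC+LPS, rank 8 in TolDC and rank 9 in BMDC. These ranks use the length of all exons, and ranks by the longest transcript can differ.

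Among the later steps of the pathway, the enzymes from Gapdh to Ldha were higher in TolDC than in BMDC, with and without LPS, except for Pgam1 under LPS and Eno2. Pkm, which encodes the pyruvate kinase of these cells, averaged 2668 ± 75.5 CPM in TolDC+LPS, 2032 ± 20.9 in TolDC, 1882 ± 26.3 in BMDC+LPS and 1401 ± 25.2 in BMDC (SD, n = 3). It was higher in TolDC by 0.54 (SE 0.035, adjusted p = 1.58e-10) without LPS and 0.50 (SE 0.035, adjusted p = 3.18e-10) with LPS, and rose with LPS by 0.39 in TolDC and 0.43 in BMDC, responses whose difference of −0.033 (SE 0.049, adjusted p = 0.623) did not pass. Ldha, which makes lactate from pyruvate, averaged 1754 ± 36.2 CPM in TolDC+LPS, 1316 ± 8.07 in TolDC, 1096 ± 23.02 in BMDC+LPS and 927 ± 11.1 in BMDC. Its excess in TolDC was 0.51 (SE 0.034, adjusted p = 2.62e-10) without LPS and 0.68 (SE 0.034, adjusted p = 2.79e-12) with LPS, and its rise with LPS was larger in TolDC, with an interaction of 0.17 (SE 0.048, adjusted p = 0.0067). Gapdh rose with LPS by 0.34 in TolDC and 0.42 in BMDC. Its excess in TolDC+LPS over BMDC+LPS, 0.11 (SE 0.035, adjusted p = 0.0124), was 0.10 (adjusted p = 0.0517) without BMDC+LPS replicate 3, with adjusted p from 3.36e-05 to 0.0517 over 20 alternatives.

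Pgk1, the first enzyme of the pathway to yield ATP, averaged 398 ± 14.96 CPM in TolDC+LPS, 372 ± 3.41 in TolDC, 300.1 ± 7.87 in BMDC+LPS and 290.2 ± 5.67 in BMDC (SD, n = 3). It was higher in TolDC by 0.36 without LPS and 0.41 with LPS, and LPS changed it by 0.094 (SE 0.037, adjusted p = 0.0319) in TolDC, and by 0.048 (SE 0.038, adjusted p = 0.261) in BMDC, which did not pass. The small rise in TolDC ranged in adjusted p from 0.00813 to 0.0919 over 20 alternatives and was 0.10 (adjusted p = 0.0585) without TolDC replicate 1, 0.10 (adjusted p = 0.057) without TolDC replicate 2, 0.087 (adjusted p = 0.0919) without TolDC replicate 3 and 0.076 (adjusted p = 0.0679) without TolDC+LPS replicate 1. Pgam1, the mutase that follows, rose with LPS by 0.33 in TolDC and 0.51 in BMDC, was higher in TolDC without LPS by 0.20, and differed by 0.022 (SE 0.040, adjusted p = 0.638) under LPS, which did not pass. Eno1, the main enolase, was higher in TolDC by 0.41 without LPS and by 0.41 with it and rose by 0.12 and 0.13 with LPS in TolDC and BMDC. A near-identical copy, Eno1b, shares sequence with Eno1, and reads matching several places were not counted, so the level of Eno1 is uncertain.

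Eno2, the enolase best known from neurons, was a minor transcript with the steepest LPS response of the core enzymes. It lies at chr6:124760053-124769673. Eno2 had 3.10, 3.09 and 3.07 CPM in TolDC+LPS, 0.159, 0.531 and 0.317 in TolDC, 14.002, 12.2 and 12.001 in BMDC+LPS, and 1.09, 1.17 and 1.25 in BMDC. Each library with LPS was above each library without it, and BMDC+LPS was the highest group. LPS raised Eno2 by 3.20 (SE 0.22, adjusted p = 2.2e-10) in TolDC and 3.45 (SE 0.15, adjusted p = 2.63e-13) in BMDC, and TolDC were lower, with a log2 difference of −1.79 (SE 0.27, adjusted p = 1.18e-05) without LPS and −2.04 (SE 0.13, adjusted p = 9.68e-11) with LPS. Even at its highest, in BMDC+LPS, Eno2 made up 2.61% of the enolase level per kilobase.

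Slc16a3 encodes MCT4, the transporter through which glycolytic cells export lactate, and lies at chr11:120948480-120960868. Slc16a3 had 319, 311 and 318 CPM in TolDC+LPS, 196, 194 and 204 in TolDC, 296, 291 and 291 in BMDC+LPS, and 122, 119 and 124 in BMDC. The 4 groups followed the order of Tpi1, with the LPS groups highest and BMDC lowest. Slc16a3 rose with LPS by 0.67 (SE 0.035, adjusted p = 2.93e-12) in TolDC and 1.27 (SE 0.036, adjusted p = 3.13e-16) in BMDC, with a difference of −0.59 (SE 0.050, adjusted p = 2.29e-08). TolDC exceeded BMDC by 0.70 without LPS and by 0.11 (SE 0.035, adjusted p = 0.00885) with LPS. The 20 genes of uptake, glycolysis and lactate export summed to 12622 ± 271 CPM in TolDC+LPS, 10759 ± 40.5 in TolDC, 11395 ± 193 in BMDC+LPS and 8943 ± 106 in BMDC (SD, n = 3), or 1.26%, 1.08%, 1.14% and 0.894% of the normalised total in that order. The excess of TolDC+LPS over BMDC+LPS in this sum rests on the abundant Pkm (2668 against 1882 CPM) and Ldha (1754 against 1096). Gene by gene, 8 of the 20 were called higher and 7 lower in TolDC+LPS (median 0.010), beside 34.3% and 33.7% of all genes.

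**Figure D3:**
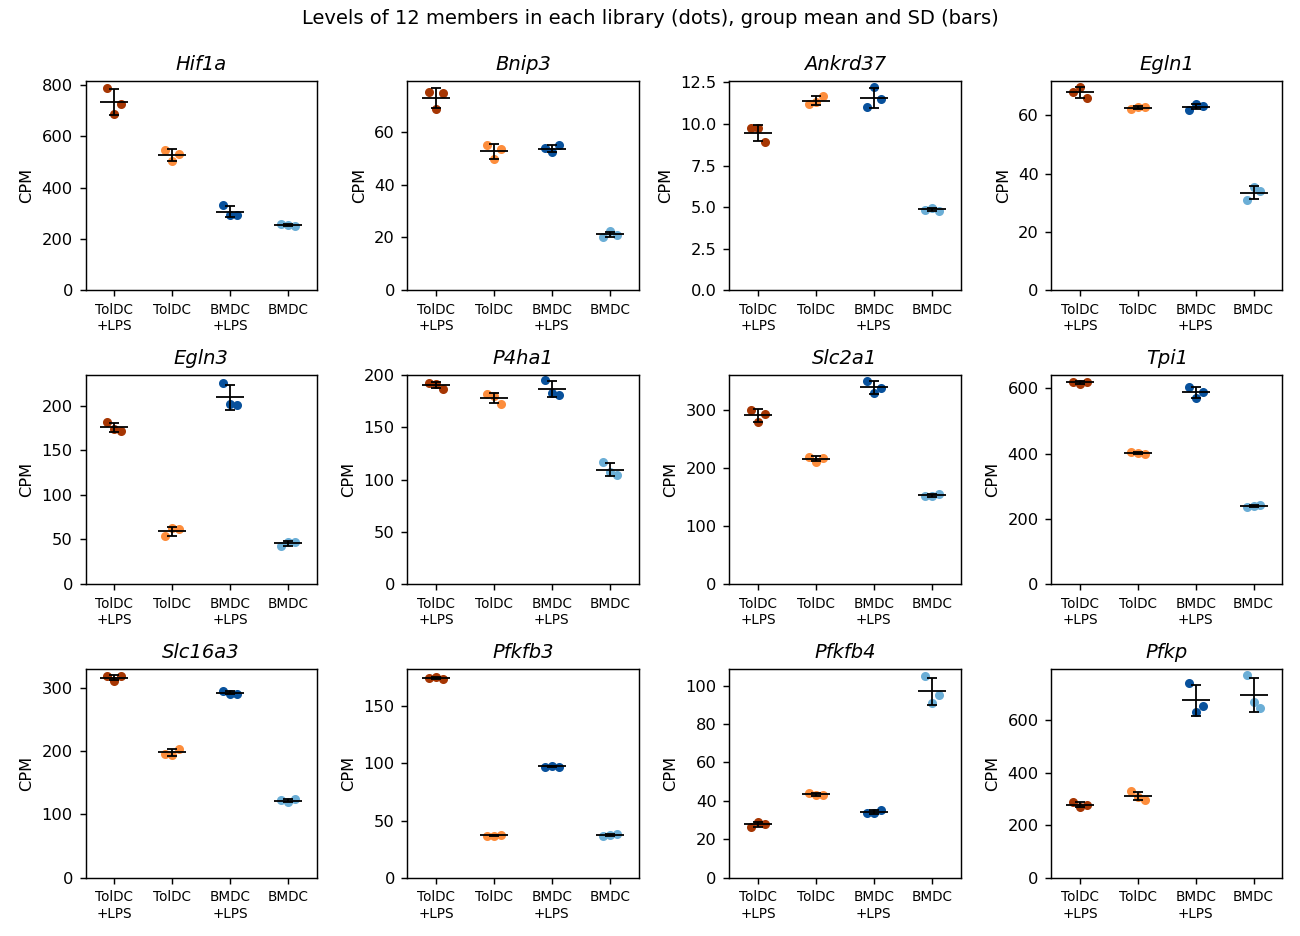
Normalised CPM of 12 members in each library (dots) of TolDC+LPS, TolDC, BMDC+LPS and BMDC, with the mean and SD of 3 libraries (bars), on linear axes that start at 0. Pfkfb3 averages 175 CPM in TolDC+LPS and stays between 36.8 and 37.2 in TolDC, and Hif1a 734 CPM in TolDC+LPS against 306 in BMDC+LPS.

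Pfkfb3 and Pfkfb4 encode enzymes with kinase and phosphatase activity that set the level of the strongest activator of phosphofructokinase, and the kinase activity prevails in Pfkfb3. Pfkfb3 lies at chr2:11471433-11554077 and Pfkfb4 at chr9:108991778-109032228. Pfkfb3 had 175, 176 and 174 CPM in TolDC+LPS, 36.96, 36.8 and 37.2 in TolDC, 97.03, 98.2 and 97.04 in BMDC+LPS, and 36.2, 37.3 and 38.2 in BMDC. Without LPS the kinds of cell overlapped, and with LPS every TolDC library was above every BMDC library. LPS raised Pfkfb3 by 2.24 (SE 0.036, adjusted p = 1.23e-19) in TolDC and 1.39 (SE 0.036, adjusted p = 1.08e-16) in BMDC, and the rise in TolDC was larger by 0.85 (SE 0.051, adjusted p = 2.94e-10). TolDC and BMDC differed by −0.0086 (SE 0.038, adjusted p = 0.885) without LPS, which did not pass, and by 0.84 (SE 0.034, adjusted p = 9.98e-14) with LPS.

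Pfkfb4 fell with LPS. Pfkfb4 had 26.4, 29.1 and 27.7 CPM in TolDC+LPS, 44.1, 42.9 and 42.9 in TolDC, 33.6, 33.7 and 35.3 in BMDC+LPS, and 105, 90.9 and 95.1 in BMDC. BMDC held the most Pfkfb4, and no library with LPS reached the lowest library of its kind without LPS. The log2 change was −0.64 (SE 0.054, adjusted p = 3.31e-09) in TolDC and −1.50 (SE 0.053, adjusted p = 6.7e-15) in BMDC, so that the fall was smaller in TolDC by 0.86 (SE 0.075, adjusted p = 3.71e-08). TolDC were lower than BMDC by 1.16 without LPS and by 0.30 with LPS on the log2 scale, both called. Per kilobase of exon, Pfkfb3 made up 80.3% of the pair in TolDC+LPS, 35.5% in TolDC, 64.7% in BMDC+LPS and 19.9% in BMDC.

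Pdk1, a kinase that shuts off pyruvate dehydrogenase, is a known HIF target and fell with LPS. It lies at chr2:71873224-71903858. Pdk1 had 38.5, 38.3 and 38.2 CPM in TolDC+LPS, 88.2, 84.9 and 79.2 in TolDC, 38.5, 36.4 and 37.5 in BMDC+LPS, and 67.1, 66.9 and 63.3 in BMDC. The 6 LPS libraries were alike at 36.4 to 38.5 CPM, and all 6 without LPS were higher. The fall was −1.13 (SE 0.045, adjusted p = 4.77e-14) in TolDC and −0.81 (SE 0.046, adjusted p = 9.74e-12) in BMDC, larger in TolDC, with an interaction of −0.32 (SE 0.064, adjusted p = 0.000509). TolDC exceeded BMDC without LPS by 0.35 (SE 0.044, adjusted p = 1.17e-06), and under LPS the difference was 0.033 (SE 0.047, adjusted p = 0.548), which did not pass. Proliferation markers fell with LPS as well, with sums of 62.4 to 87.6 CPM in TolDC+LPS against 316 to 323 in TolDC, and 93.9 to 141 in BMDC+LPS against 207 to 252 in BMDC. Their part in the falls of Pdk1 and Pfkfb4 was not tested.

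Hif1a, the alpha chain of HIF-1, was over 2-fold higher in TolDC than in BMDC with and without LPS. It lies at chr12:73901375-73947530. Hif1a had 788, 688 and 727 CPM in TolDC+LPS, 545, 503 and 533 in TolDC, 331, 293 and 292 in BMDC+LPS, and 258, 254 and 249.7 in BMDC. No groups overlapped, and TolDC without LPS held more Hif1a than BMDC with LPS. TolDC exceeded BMDC by 1.05 (SE 0.054, adjusted p = 8.04e-12) without LPS and 1.26 (SE 0.054, adjusted p = 4.66e-13) with LPS. LPS raised the transcript by 0.48 (SE 0.053, adjusted p = 2.28e-07) in TolDC and 0.27 (SE 0.054, adjusted p = 0.000225) in BMDC. The difference of 0.21 (SE 0.076, adjusted p = 0.0305) ranged in adjusted p from 3.1e-06 to 0.0859 over 19 alternatives, and was 0.20 (adjusted p = 0.0574) without BMDC replicate 1, 0.21 (adjusted p = 0.0542) without BMDC replicate 2, 0.18 (adjusted p = 0.0775) without BMDC+LPS replicate 2, 0.18 (adjusted p = 0.0838) without BMDC+LPS replicate 3, 0.18 (adjusted p = 0.0859) without TolDC replicate 2 and 0.16 (adjusted p = 0.0581) without TolDC+LPS replicate 1. These are transcript levels, and HIF-1 alpha is controlled in large part through the stability of the protein, which was not measured.

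Egln1 and Egln3 encode PHD2 and PHD3, the hydroxylases that mark HIF alpha chains for destruction and are themselves HIF targets. Egln3, at chr12:54178981-54203860, had the larger LPS response of the pair. Egln3 had 182, 174 and 172 CPM in TolDC+LPS, 53.3, 62.3 and 61.8 in TolDC, 226, 202 and 201 in BMDC+LPS, and 42.7, 46.8 and 47.6 in BMDC. The LPS libraries stood far above the others, with BMDC+LPS higher than TolDC+LPS. LPS raised Egln3 by 1.57 (SE 0.061, adjusted p = 3.22e-13) in TolDC and 2.20 (SE 0.063, adjusted p = 4.63e-15) in BMDC, a difference of −0.62 (SE 0.086, adjusted p = 1.79e-05). TolDC were higher than BMDC by 0.37 without LPS and lower by 0.25 with LPS on the log2 scale. Per kilobase of exon, Egln3 made up 77.8% of the pair in TolDC+LPS, 56.0% in TolDC, 81.8% in BMDC+LPS and 64.8% in BMDC.

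Egln1 separated BMDC without LPS from the rest. Egln1 had 67.8, 69.8 and 65.97 CPM in TolDC+LPS, 62.2, 62.7 and 62.97 in TolDC, 61.9, 63.8 and 63.2 in BMDC+LPS, and 31.01, 35.5 and 33.9 in BMDC. The other 9 libraries lay between 61.9 and 69.8 CPM and those of BMDC between 31.0 and 35.5. LPS raised it by 0.11 (SE 0.044, adjusted p = 0.0269) in TolDC and by 0.91 (SE 0.047, adjusted p = 2.2e-12) in BMDC, with a difference of −0.80 (SE 0.065, adjusted p = 1.42e-08). TolDC exceeded BMDC without LPS by 0.90 (SE 0.047, adjusted p = 5.3e-12), and by 0.11 (SE 0.044, adjusted p = 0.0393) with LPS. The 2 small changes were near the threshold. The rise in TolDC had adjusted p from 0.0106 to 0.0954 over 20 alternatives and was 0.11 (adjusted p = 0.0634) without TolDC replicate 1, 0.12 (adjusted p = 0.0571) without TolDC replicate 2, 0.12 (adjusted p = 0.0518) without TolDC replicate 3 and 0.10 (adjusted p = 0.0954) without TolDC+LPS replicate 2. The excess in TolDC+LPS had adjusted p from 0.0164 to 0.121 and was 0.094 (adjusted p = 0.0734) without BMDC replicate 3, 0.10 (adjusted p = 0.0954) without BMDC+LPS replicate 1, 0.12 (adjusted p = 0.053) without BMDC+LPS replicate 2, 0.11 (adjusted p = 0.0733) without BMDC+LPS replicate 3, 0.10 (adjusted p = 0.0989) without TolDC+LPS replicate 1 and 0.091 (adjusted p = 0.12) without TolDC+LPS replicate 2.

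Bnip3 and Bnip3l encode receptors that mark mitochondria for removal by autophagy. Bnip3, a classical hypoxia gene at chr7:138890836-138909519, was also lowest in BMDC. Bnip3 had 75.2, 68.7 and 74.7 CPM in TolDC+LPS, 55.05, 49.6 and 53.4 in TolDC, 53.9, 52.3 and 55.02 in BMDC+LPS, and 20.2, 22.3 and 20.9 in BMDC. TolDC+LPS held the most, and TolDC without LPS overlapped BMDC+LPS. LPS raised Bnip3 by 0.47 (SE 0.049, adjusted p = 8.47e-08) in TolDC and 1.34 (SE 0.055, adjusted p = 6.28e-14) in BMDC, and the difference was −0.88 (SE 0.074, adjusted p = 2.29e-08). TolDC exceeded BMDC by 1.32 (SE 0.055, adjusted p = 1.99e-13) without LPS and 0.44 (SE 0.049, adjusted p = 2.69e-07) with LPS. Bnip3l, which encodes NIX, fell with LPS by 0.33 in TolDC and 0.24 in BMDC on the log2 scale. It averaged 149 ± 3.29 CPM in TolDC+LPS, 187 ± 3.24 in TolDC, 116 ± 5.13 in BMDC+LPS and 137 ± 2.01 in BMDC (SD, n = 3), and was higher in TolDC by 0.45 without LPS and 0.36 with LPS. The share of Bnip3 in the pair per kilobase was 45.5% in TolDC+LPS, 32.4% in TolDC, 44.1% in BMDC+LPS and 20.8% in BMDC.

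Ankrd37, a small ankyrin-repeat protein known as a HIF-1 target, had the most divergent LPS response of the members with at least 5 CPM in their highest group. It lies at chr8:45996902-46005707. Ankrd37 had 9.73, 9.79 and 8.92 CPM in TolDC+LPS, 11.2, 11.3 and 11.7 in TolDC, 11.01, 12.2 and 11.5 in BMDC+LPS, and 4.83, 4.96 and 4.78 in BMDC. The BMDC libraries were the lowest, at 4.78 to 4.96 CPM, and those of TolDC+LPS the next. With LPS the log2 change of Ankrd37 was −0.27 (SE 0.074, adjusted p = 0.00319) in TolDC and 1.25 (SE 0.082, adjusted p = 8.02e-11) in BMDC. The interaction was −1.52 (SE 0.11, adjusted p = 3.87e-09). TolDC exceeded BMDC without LPS by 1.23 (SE 0.081, adjusted p = 1.95e-10) and were lower with LPS by 0.29 on the log2 scale. Ankrd37 overlaps Ufsp2 on the opposite strand, and in counts of both strands the change in TolDC was −0.19 (adjusted p = 0.0671), within a range in adjusted p of 0.00224 to 0.0671 over 20 alternatives.

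The collagen prolyl hydroxylases P4ha1 and P4ha2, alpha chains of the enzyme that makes collagen stable, are HIF targets in several cell types. P4ha1 had 192, 192 and 187 CPM in TolDC+LPS, 182, 180.0 and 172 in TolDC, 196, 183 and 181 in BMDC+LPS, and 116, 107 and 104 in BMDC. As with Egln1, BMDC without LPS stood below the other 9 libraries. P4ha1 changed with LPS by 0.10 (SE 0.044, adjusted p = 0.0556) in TolDC, which did not pass, and rose by 0.77 (SE 0.044, adjusted p = 1.15e-11) in BMDC, with a difference of −0.67 (SE 0.062, adjusted p = 7.37e-08). The value in TolDC passed in 7 of 20 alternatives, with adjusted p from 0.00194 to 0.202, among them 0.097 (adjusted p = 0.0063) with the replicate block, 0.097 (adjusted p = 0.0294) without BMDC replicate 1, 0.11 (adjusted p = 0.0271) without BMDC replicate 3 and 0.098 (adjusted p = 0.0323) without BMDC+LPS replicate 1. Without LPS TolDC exceeded BMDC by 0.70 (SE 0.044, adjusted p = 1.01e-10), and with LPS by 0.027 (SE 0.044, adjusted p = 0.591), which did not pass.

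P4ha2 was rare. P4ha2 had 2.22, 2.32 and 2.43 CPM in TolDC+LPS, 0.516, 0.531 and 0.458 in TolDC, 1.62, 1.11 and 1.39 in BMDC+LPS, and 0.106, 0.0324 and 0.0861 in BMDC. The BMDC libraries held 6 reads between them. LPS raised P4ha2 by 2.21 (SE 0.22, adjusted p = 4.14e-08) in TolDC and 4.17 (SE 0.35, adjusted p = 3.75e-09) in BMDC, and the difference was −1.96 (SE 0.49, adjusted p = 0.00305). TolDC exceeded BMDC by 2.70 without LPS and 0.74 with LPS, both called. Adm, which encodes the vasodilator peptide adrenomedullin, was as rare, at 1.11 ± 0.149 CPM in TolDC+LPS, 0.436 ± 0.0131 in TolDC, 0.532 ± 0.0661 in BMDC+LPS and 0.143 ± 0.0898 in BMDC (SD, n = 3), and was called higher with LPS in both kinds of cell (1.35 in TolDC and 1.82 in BMDC) and higher in TolDC (1.55 without LPS and 1.08 with LPS). The 3 BMDC libraries held 12 reads of Adm, and replicate 1 the most, at 0.247 CPM. Without BMDC replicate 1 the rise in BMDC was 2.45 and the excess in TolDC without LPS 2.18.

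Ero1l, the oxidase that drives disulphide bond formation in the endoplasmic reticulum, lies at chr14:45283087-45318771. Ero1l had 207, 212 and 209 CPM in TolDC+LPS, 115, 109 and 108 in TolDC, 236, 219 and 225 in BMDC+LPS, and 94.2, 94.5 and 92.6 in BMDC. LPS raised it by 0.91 (SE 0.038, adjusted p = 1.02e-13) in TolDC and 1.27 (SE 0.039, adjusted p = 8.27e-16) in BMDC, with a difference of −0.36 (SE 0.054, adjusted p = 2.77e-05). Without LPS it was higher in TolDC by 0.24. The deficit in TolDC+LPS of −0.11 (SE 0.037, adjusted p = 0.0109) was −0.083 (adjusted p = 0.0613) without BMDC+LPS replicate 1, with adjusted p from 0.00128 to 0.074 over 20 alternatives.

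Ddit4 and Ndrg1, stress-induced genes raised by hypoxia in many cells, took opposite positions between the kinds of cell. Ddit4 encodes REDD1, an inhibitor of the growth-promoting kinase complex mTORC1, and lies at chr10:59949669-59951834. Ddit4 had 88.7, 77.3 and 76.97 CPM in TolDC+LPS, 24.1, 25.4 and 26.5 in TolDC, 56.96, 54.8 and 56.8 in BMDC+LPS, and 13.7, 16.3 and 16.6 in BMDC. It was higher in TolDC than in BMDC by 0.71 (SE 0.075, adjusted p = 2.06e-07) without LPS and 0.53 (SE 0.061, adjusted p = 6.22e-07) with LPS, and rose with LPS by 1.68 and 1.86 in TolDC and BMDC, both called. The difference between the responses, −0.18 (SE 0.097, adjusted p = 0.135), did not pass, and passed without TolDC+LPS replicate 1, at −0.25 (adjusted p = 0.0218), within a range of 0.0218 to 0.402 over 19 alternatives. Ndrg1 lies at chr15:66929318-66969640. Ndrg1 had 16.9, 17.3 and 17.3 CPM in TolDC+LPS, 7.14, 8.82 and 9.37 in TolDC, 56.1, 57.97 and 56.6 in BMDC+LPS, and 17.6, 20.8 and 20.5 in BMDC. TolDC+LPS did not reach the lowest BMDC library without LPS. TolDC were lower than BMDC, with a log2 difference of −1.22 (SE 0.083, adjusted p = 3.25e-10) without LPS and −1.73 (SE 0.071, adjusted p = 1.3e-13) with LPS, and the rises of 1.02 with LPS in TolDC and 1.53 in BMDC differed by −0.51 (SE 0.11, adjusted p = 0.000885).

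**Figure D4:**
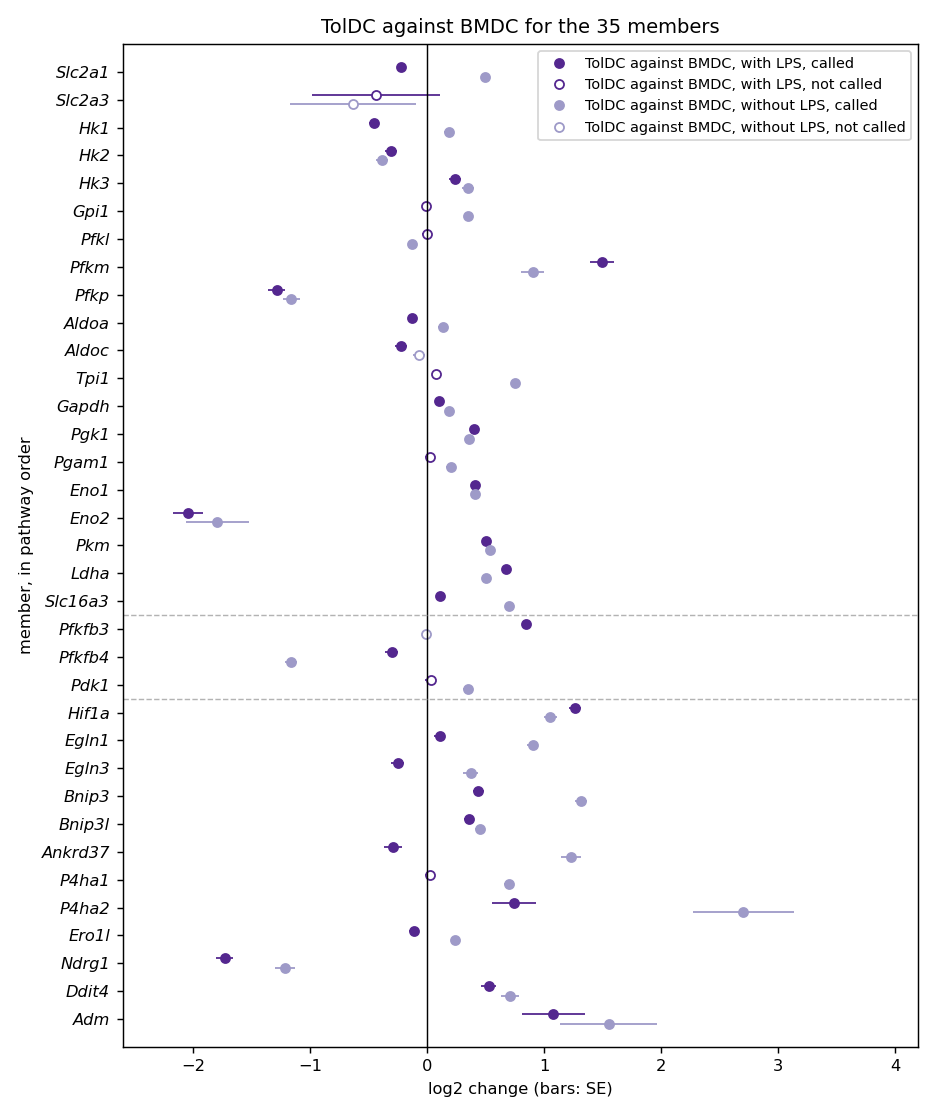
Log2 difference of TolDC minus BMDC for the 35 members in pathway order, with LPS (dark) and without LPS (light), with bars for the SE. Filled points passed an adjusted p of 0.05. Hif1a lies above 1 in both, whereas Bnip3, Ankrd37, Egln1 and P4ha1 lie between −0.29 and 0.44 with LPS and between 0.70 and 1.32 without LPS.

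As sums, the 12 HIF and hypoxia genes reached 1710 ± 64.4 CPM in TolDC+LPS, 1224 ± 24.5 in TolDC, 1288 ± 56.2 in BMDC+LPS and 735 ± 7.69 in BMDC (SD, n = 3). Hif1a alone averaged 734 CPM of this in TolDC+LPS, 527 in TolDC, 306 in BMDC+LPS and 254 in BMDC. The higher sum in TolDC+LPS than in BMDC+LPS thus rests on Hif1a and does not describe the genes one by one. With LPS, 9 of the 12 rose and 2 fell in TolDC (median 0.70), against 35.4% and 35.9% of all genes, and 11 rose and 1 fell in BMDC (median 1.31), against 36.7% and 36.4%. Set against BMDC, 11 were higher and 1 lower in TolDC without LPS (median 0.81), where 32% and 30.4% of all genes were, and 7 were higher and 4 lower with LPS (median 0.23), where 34.3% and 33.7% of all genes were. Bnip3l was the member of the 12 that fell with LPS in both kinds of cell. Summed markers of macrophages and monocytes were 2163 to 2607 CPM in TolDC+LPS against 946 to 968 in TolDC, and 1740 to 2189 in BMDC+LPS against 1901 to 1962 in BMDC, and handling-stress genes were 887 to 954 in TolDC+LPS against 563 to 593 in TolDC, and 995 to 1102 in BMDC+LPS against 441 to 475 in BMDC. Single genes went both ways. Of the 9 macrophage and monocyte markers, 6 rose and 3 fell with LPS in TolDC, and 4 rose and 5 fell in BMDC. Of the 7 handling-stress genes, 4 rose and 2 fell in TolDC, and 5 rose and 2 fell in BMDC. The shares of all genes were 35.4% and 35.9% in TolDC and 36.7% and 36.4% in BMDC. The part of these markers and stress genes in the hypoxia genes was not tested.

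Beyond the members, 47 other genes of glucose transport and pyruvate metabolism and 58 other hypoxia genes, listed from general knowledge, were counted in the same tests. Of the first list, 33 were tested. With LPS, 7 rose (21.2%) and 17 fell (51.5%) in TolDC (median −0.25), where 35.4% and 35.9% of all genes did, and 7 rose (21.2%) and 21 fell (63.6%) in BMDC (median −0.37), where 36.7% and 36.4% did. Against BMDC, 8 were higher (24.2%) and 14 lower (42.4%) in TolDC without LPS (median −0.13), beside 32% and 30.4% of all genes. With LPS 12 were higher (36.4%) and 9 lower (27.3%; median 0.099), beside 34.3% and 33.7%, so the share called higher was near that of all genes. The interaction was called higher for 11 (33.3%) and lower for 7 (21.2%; median 0.19), beside 20.4% and 24%. Fbp1, the gluconeogenic enzyme that opposes phosphofructokinase, fell with LPS, with a log2 change of −4.49 (SE 0.074, adjusted p = 3.07e-19) in TolDC and −3.61 (SE 0.066, adjusted p = 1.17e-18) in BMDC, with means of 4.57 CPM in TolDC+LPS, 103 in TolDC, 12.7 in BMDC+LPS and 156 in BMDC. Slc2a6, a transporter of the GLUT family found in macrophage lysosomes, averaged 259 CPM in TolDC+LPS, 127 in TolDC, 221 in BMDC+LPS and 77.8 in BMDC. It was higher with LPS in both kinds of cell, in TolDC by 1.03 (SE 0.043, adjusted p = 1.09e-13). In BMDC the libraries held 215 to 225 CPM with LPS and 74.2 to 81.8 without it. Gpd2, the mitochondrial end of the glycerol phosphate shuttle, had the lowest interaction of the list, −0.95 (SE 0.072, adjusted p = 5.95e-09).

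Of the other hypoxia genes, 51 were tested. With LPS, 35 rose (68.6%) and 12 fell (23.5%) in TolDC (median 0.34), where 35.4% and 35.9% of all genes did, and 37 rose (72.5%) and 8 fell (15.7%) in BMDC (median 0.47), where 36.7% and 36.4% did. TolDC were higher than BMDC for 26 (50.98%) and lower for 13 (25.5%) without LPS (median 0.14), beside 32% and 30.4% of all genes. With LPS they were higher for 18 (35.3%) and lower for 22 (43.1%; median 0.025), beside 34.3% and 33.7%, so the share called higher was near that of all genes. The interaction was called lower for 21 (41.2%) and higher for 6 (11.8%; median −0.17), beside 24% and 20.4%. Nos2, the inducible nitric oxide synthase, averaged 2523 CPM in TolDC+LPS, 197 in TolDC, 3236 in BMDC+LPS and 70.6 in BMDC, with an interaction of −1.84 (SE 0.12, adjusted p = 1.56e-07). Ak4, a mitochondrial adenylate kinase induced by hypoxia, averaged 41.4 CPM in TolDC+LPS, 27.9 in TolDC, 32.8 in BMDC+LPS and 10.5 in BMDC, with an interaction of −1.06 (SE 0.094, adjusted p = 4.33e-08). Loxl2, a lysyl oxidase, was near absent from BMDC and averaged 96.4 CPM in TolDC+LPS, 5.86 in TolDC, 1.54 in BMDC+LPS and 0.127 in BMDC, and TolDC exceeded BMDC by 5.41 (SE 0.22, adjusted p = 1.94e-13) without LPS and 5.97 (SE 0.10, adjusted p = 7.58e-19) with LPS.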

How the data were processed

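Gene expression was measured by stranded mRNA sequencing in 12 libraries, 3 in each of 4 groups taken from the sample labels. The authors deposited raw counts for each gene, made with cutadapt and STAR on mouse genome mm10 (GRCm38), per the submitters' processing notes, which also name edgeR and limma. Neither tool versions nor the annotation are given in the sources used here. The count column of the strand with 35.2 to 37.3 times the total of the opposite one was used. Of the reads in a table, 79.3% to 80.6% were assigned to genes, and 19.4% to 20.7% lay in the 4 summary totals that name no gene, which were left out. Reads that match several places are not counted. Symbols, positions and exon lengths came from GENCODE M21, which matched 31011 of 31054 identifiers. Aldoa has 2 identifiers, and the longer gene was used (22 reads in all fell on the other).

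Low genes were dropped by filterByExpr (4 groups), and the rest were scaled by TMM (factors 0.945 to 1.04) and fitted with edgeR 4.0.16 (R 4.3.3) by quasi-likelihood with robust estimation on all 12 libraries with 1 mean per group, which share the estimate of the spread (biological coefficient of variation 0.0572). SEs are the log2 change divided by the square root of F. The code was tested on simulated data. DESeq2 1.42.0, other scaling, no filter, counts of both strands, a replicate block and left-out libraries were tried as alternatives. The labels give the groups the same replicate numbers. In each of the 4 comparisons of 2 groups, the deviations from the group means of all 3 same-numbered pairs correlated above 0.1 (lowest 0.131). From the data alone, the numbers were therefore treated as possible pairs there, in the alternative with the replicate block. Its value stands beside a 2-group result whose call it changes, and interactions that it changes are listed further below. The SEs, and adjusted p-values given without a setting, come from the main fit, which has no block. Over all 18 pairs, which the interaction draws on, the lowest correlation was 0.091. Libraries of different numbers correlated at up to 0.202, whereas the pairs numbered 1 correlated at 0.33 or more. For 6 of the 12 libraries, the best match in every other group had the same number. These correlations do not settle whether the numbers mark true pairs, since some pairs of different numbers correlated more than some of the same number. The members and lists were chosen with earlier results of these data known. Members called with at least a 2-fold change in a contrast and at least 5 CPM in their highest group are given with every library's values and their position, the others more briefly. Other pathway genes named are among the 4 largest called changes of a list in a contrast with at least 5 CPM, and not all of these are named.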

Additional observations from a re-analysis of the deposited data

Results flagged for a closer look

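For 4 members the LPS responses of TolDC and BMDC differed by the interaction test and either by at least 2-fold or in direction. The second criterion, which added Hk1 and Pfkm, was chosen after their values were seen. The first was met by 2 of the 35 members, beside 8.29% of all genes. The share of all genes that met the second was not counted. Ankrd37 had an interaction of −1.52 (SE 0.11, adjusted p = 3.87e-09), with a log2 change of −0.27 in TolDC and 1.25 in BMDC. P4ha2 had an interaction of −1.96 (SE 0.49, adjusted p = 0.00305), with 2.21 in TolDC and 4.17 in BMDC, and rests on 6 reads in the 3 BMDC libraries. Without BMDC replicate 2, which held 0.0324 CPM, the interaction of P4ha2 was −1.57, and over 19 alternatives it ran from −2.32 to −1.57. Hk1 had an interaction of −0.64 (SE 0.057, adjusted p = 4.87e-08), with −0.094 in TolDC and 0.55 in BMDC. Pfkm had an interaction of 0.59 (SE 0.14, adjusted p = 0.00219), with 0.32 in TolDC and −0.27 in BMDC. For Hk1 the fall in TolDC and for Pfkm the fall in BMDC were close to the threshold, so the opposite directions depend on small changes, whereas the interactions themselves passed in all 19 alternatives.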

How the results depend on the processing

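Counts of called members moved little. Counted on both strands, 5 members fell with LPS in TolDC in place of 8, with Hk1, Pfkp and Ankrd37 lost, and the cause was not tested. In no other setting run did a count of members, of all genes or of another list move by over 1.5 times; for the other lists, all settings but the count of both strands were added after seeing the data. Leaving out 1 library at a time, 22 to 25 members rose and 6 to 8 fell with LPS in TolDC, 26 rose and 5 to 6 fell with LPS in BMDC, 26 were higher and 6 lower in TolDC without LPS, 14 to 16 were higher and 11 to 12 lower with LPS, and the interaction was higher for 4 to 5 and lower for 16 to 18. Of 3465 single-gene values under alternatives, 3379 kept their side of the threshold, 56 lost the call and 30 gained it. No value that was called in the main fit or in the alternative changed direction. Values called in neither could change sign and were counted as kept, such as the Slc2a3 interaction (0.20, with a range of −0.14 to 0.53). Scaling by RLE size factors cost 3 calls. With the replicate block, 9 member calls were gained and 0 lost: those of Slc2a3, Tpi1 and P4ha1 given with these genes, and the interactions of Hk3 (−0.11), Pfkl (0.12), Pfkp (−0.12) and Aldoc (−0.15), with the members called for the interaction at 6 higher and 19 lower. It changed no other member's call. Pgam1 lost its interaction call without the filter on low counts (adjusted p = 0.0564, within 0.00121 to 0.0564 over 19 alternatives). Depth limits P4ha2, Adm and Eno2, whose lowest levels are close to 3 reads per library.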

Other observations

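Of 25 genes of the pentose phosphate pathway and glycogen metabolism, 24 were tested. With LPS, 5 rose (20.8%) and 12 fell (50%) in TolDC (median −0.11), where 35.4% and 35.9% of all genes did, and 4 rose (16.7%) and 9 fell (37.5%) in BMDC (median −0.11), where 36.7% and 36.4% did. TolDC were higher than BMDC for 15 (62.5%) and lower for 8 (33.3%) without LPS (median 0.17), beside 32% and 30.4% of all genes, and higher for 10 (41.7%) and lower for 6 (25%) with LPS (median 0.020), beside 34.3% and 33.7%. The interaction was called higher for 4 (16.7%) and lower for 5 (20.8%; median −0.028), near the 20.4% and 24% of all genes, as was the share that fell in BMDC. Tkt, the transketolase that links the pentose phosphate pathway to glycolysis, fell with LPS in TolDC, with a log2 change of −0.89 (SE 0.033, adjusted p = 2.21e-14), with means of 413 CPM in TolDC+LPS, 763 in TolDC, 460.5 in BMDC+LPS and 693 in BMDC. Taldo1, the transaldolase of the same pathway, was higher in TolDC by 0.70 (SE 0.037, adjusted p = 7.15e-12) without LPS and 0.70 (SE 0.037, adjusted p = 5.98e-12) with LPS. Pygl, which releases glucose from glycogen, was higher in TolDC with LPS by 0.89 (SE 0.051, adjusted p = 2.01e-11), with means of 391 CPM in TolDC+LPS, 348 in TolDC, 212 in BMDC+LPS and 227 in BMDC. Khk, the kinase that admits fructose, fell with LPS, with a log2 change of −0.93 (SE 0.091, adjusted p = 2.74e-08) in TolDC and −1.70 (SE 0.10, adjusted p = 2.97e-11) in BMDC.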
